A study of Mus musculus with 9 samples.

Results

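The 8 genes described here, *Dbp*, *Tef*, *Ciart*, *Nfil3*, *Bhlhe40*, *Rora*, *Wee1* and *Usp2*, are transcription factors at the output of the circadian clock and genes that the clock is known to control. They were picked by symbol from a count table of 46095 gene symbols, and all 8 were in the table and passed the filter on low counts, as 14593 genes did. The set was chosen from the measured difference between the genotypes in these same libraries, so that difference is given as a description, with no p-value for any of the 8.

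RNA was sequenced from intestinal epithelial cells (IECs) that EDTA had released from the colon of C57BL/6J mice. The 4 control libraries carry the Smad4-knockout genotype, and the 5 others the Smad4-knockout;Setd2-knockout genotype, called DKO here. In both groups Cre recombinase under the Villin promoter removes floxed *Smad4* from the intestinal epithelium, and in DKO mice it removes floxed *Setd2*, the methyltransferase of H3K36, as well, so neither group has intact *Smad4* and no library of wild-type mice was analysed here. Every mouse had been injected with AOM (10 mg/kg), a colon carcinogen, at 8 weeks of age and had then drunk 2% DSS, an agent that damages the lining of the colon, before IECs were taken at 10 days. The hour of the day at which the cells were taken is not given in the sources used here.

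The circadian clock is a transcription loop in which the factors CLOCK and BMAL1 (encoded by *Arntl*) switch on genes through the E-box sequence, and the PER and CRY proteins then shut CLOCK and BMAL1 off. Each output factor passes this rhythm on through a sequence of its own. DBP and TEF, of the PAR bZIP family, activate genes through the D-box, NFIL3 represses through the same sequence, CIART and BHLHE40 oppose CLOCK and BMAL1, and RORA activates through the RORE, where the REV-ERB proteins (*Nr1d1*, *Nr1d2*) repress. In the gut, clock genes cycle with the time of day and with feeding, and outputs such as the cell cycle kinase *Wee1* and the deubiquitinase *Usp2* follow.

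The promoter sequences of *Ciart*, *Tef* and *Nfil3* are shown because they held a match to a clock sequence. Any link between these matches and the levels of the genes was not tested. The sequences are RefSeq windows of 300 bases on build GRCm38.p6, from 250 bases before the start of transcription to 50 bases after it. In all, 7 windows of 6 members were found. The table held no entry for *Bhlhe40* and *Wee1*. Capitals mark a match on either strand to the E-box CACGTG or to the RORE, searched as TAGGTCA and TGGGTCA.
Ciart, chr3:95882179-95882478, minus strand: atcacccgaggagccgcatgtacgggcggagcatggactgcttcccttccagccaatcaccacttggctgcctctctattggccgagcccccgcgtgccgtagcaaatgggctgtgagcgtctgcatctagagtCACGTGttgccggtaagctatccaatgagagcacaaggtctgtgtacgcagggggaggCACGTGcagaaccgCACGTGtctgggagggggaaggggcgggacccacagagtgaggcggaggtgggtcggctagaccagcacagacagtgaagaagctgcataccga
Tef, upstream start, chr15:81802423-81802722, plus strand: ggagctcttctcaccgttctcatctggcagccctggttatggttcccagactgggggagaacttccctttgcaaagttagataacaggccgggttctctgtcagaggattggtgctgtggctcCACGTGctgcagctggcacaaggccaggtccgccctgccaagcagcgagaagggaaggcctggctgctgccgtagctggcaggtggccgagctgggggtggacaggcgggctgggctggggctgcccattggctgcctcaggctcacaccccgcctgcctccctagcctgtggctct
Tef, downstream start, chr15:81811164-81811463, plus strand: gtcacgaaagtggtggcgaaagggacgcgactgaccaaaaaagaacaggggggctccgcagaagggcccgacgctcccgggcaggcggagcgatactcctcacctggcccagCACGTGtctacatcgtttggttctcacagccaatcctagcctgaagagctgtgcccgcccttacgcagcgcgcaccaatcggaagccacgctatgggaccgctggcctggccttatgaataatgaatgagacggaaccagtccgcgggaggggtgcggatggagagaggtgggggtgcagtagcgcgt
Nfil3, chr13:52980990-52981289, minus strand: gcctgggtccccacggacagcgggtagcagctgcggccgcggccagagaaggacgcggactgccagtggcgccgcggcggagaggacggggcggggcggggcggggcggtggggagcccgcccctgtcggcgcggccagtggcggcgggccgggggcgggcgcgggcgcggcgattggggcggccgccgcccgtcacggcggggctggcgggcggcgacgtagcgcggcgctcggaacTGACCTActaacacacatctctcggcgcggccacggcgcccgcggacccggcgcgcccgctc

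The *Ciart* window held 3 E-boxes, whose first bases lie at -116, -58 and -44 from the start. At least 1 E-box was found in 7.15% of all 32851 promoter windows of this length, and at least 3 in 0.0883%. Each of the *Tef* windows held 1 E-box, at -127 and at -138. The *Nfil3* window held 1 RORE on the reverse strand at -12, a sequence found in 6.45% of all windows. The windows of *Dbp*, *Usp2* and *Rora* held none of these letters, and no window of a member held the D-box (searched as TTATGTAA and TTACGTAA, 1.06% of all windows) or the related CACGTT (4.68%). A match describes the sequence and does not show that a factor binds there.

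Values are CPM, the counts of a library scaled to a common total with edgeR's TMM factors, given as mean ± SD with the number n of libraries. The libraries held 12487129 to 17120202 counts, and 1 count was worth 0.0593 to 0.0793 CPM. *Setd2* was lower in every DKO library, at 66.0 ± 14.7 CPM (n = 5) against 113 ± 9.44 CPM (n = 4), with a log2 fold change of -0.77 (standard error 0.14, edgeR adjusted p = 0.00756). *Smad4*, deleted in both groups, was at 64.1 ± 19.0 and 70.2 ± 34.3 CPM and did not pass (edgeR adjusted p = 0.819). DKO replicates 1 and 2 stood apart from the other DKO libraries over all genes. The chi-square per gene between the counts of a pair of libraries was 46.5 to 70.1 for either of them against DKO replicates 3 to 5, 20.5 between the pair itself, at most 29.6 among DKO replicates 3 to 5 and 11.8 to 42.6 among Smad4-knockout libraries. DKO replicates 1, 2 and 5 had 4907, 4745 and 3857 counts in 4 Y-linked genes and the other 6 libraries at most 28, so that every library with over 1000 such counts was a DKO library. *Xist* ran the other way, with 5, 6 and 5 counts in DKO replicates 1, 2 and 5 and 17833 to 26617 in the other 6 libraries. Read as sex, DKO replicates 1, 2 and 5 were male and the other 6 libraries female, so sex was unbalanced between the genotypes. With a term for Y-linked counts and among libraries with few of them, the log2 fold change of *Smad4* turned from 0.13 to -0.71 and -0.70. Between the 2 DKO libraries with few Y-linked counts and the 3 with many, *Dbp* averaged 8.15 and 12.3 CPM and *Tef* 56.2 and 80.3 CPM. *Ciart* averaged 3.25 and 9.87 CPM, *Bhlhe40* 141 and 184 CPM, and *Wee1* 28.6 and 19.0 CPM. For *Ciart* the higher mean came from DKO replicates 1 and 2, with DKO replicate 5 at 2.25 CPM. The part of Y-linked counts in the differences between the genotypes was not tested beyond the values given with each result.

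*Dbp*, *Tef* and *Ciart* were higher in every DKO library than in every control library, by little for *Ciart* in DKO replicate 5, while *Nfil3*, *Bhlhe40*, *Rora*, *Wee1* and *Usp2* overlapped between the genotypes. In edgeR, 3 of the 8 passed an adjusted p of 0.05, all higher in DKO IECs, where 13.3% of the 14593 tested genes did so, 6.76% with a higher and 6.54% with a lower level. All DKO libraries lay above all Smad4-knockout libraries for those same 3 genes, as they did for 8.34% of all genes tested, and below them for none of the 8, as for 8.87% of all genes. Since the 8 genes were selected on this contrast, nothing is read from these shares. The fitted log2 fold change was positive for 7 of the 8, with a median of 0.40, beside -0.00059 over all genes tested, of which 7291 were positive. The same selection bears on these values, and nothing is read from them either.

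**Figure D1:**
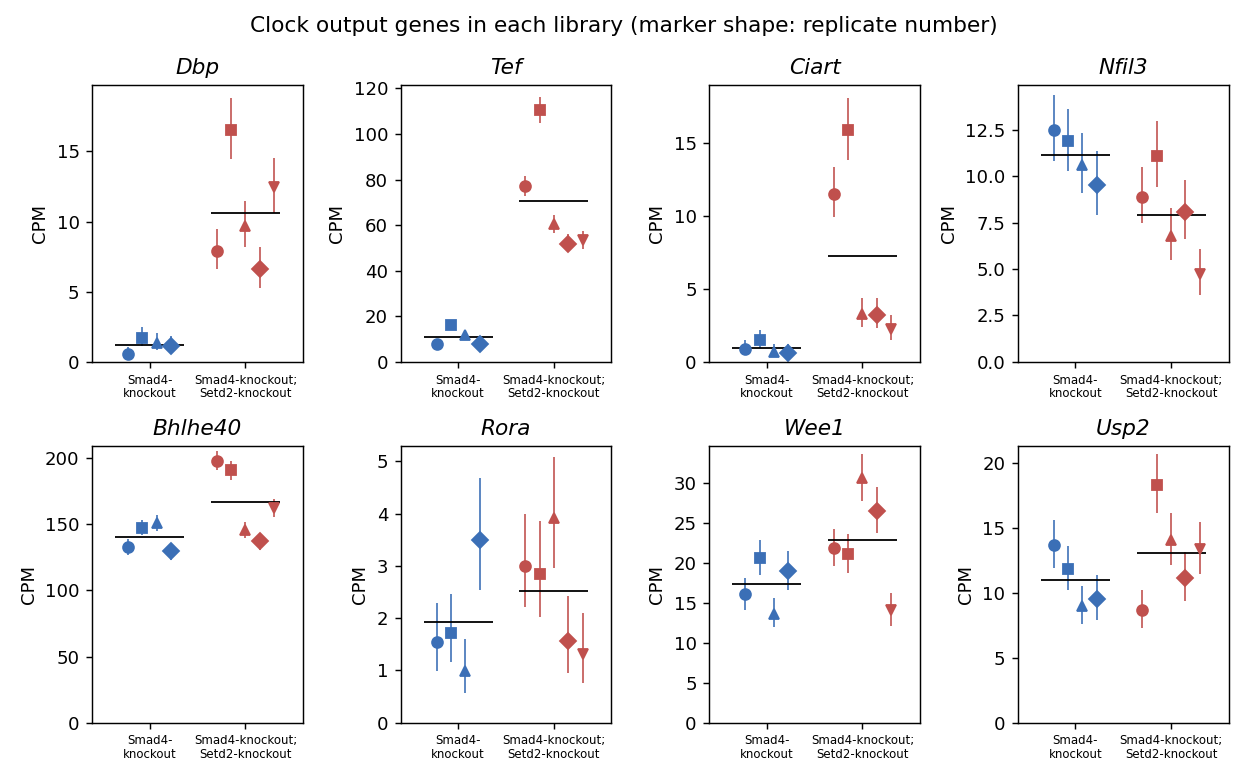
Level in CPM (linear vertical axes starting at 0) of each of the 8 genes in each library, blue for the 4 Smad4-knockout and red for the 5 DKO libraries, with the marker shape giving the replicate number, thin bars the 95% exact Poisson interval of the count, and black lines the mean of the genotype. For *Dbp*, *Tef* and *Ciart* every red point lies above every blue one, and the *Ciart* points of DKO replicates 1 and 2, at 11.5 and 15.8 CPM, stand apart from the other 3.

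*Dbp*, on chr7:45705088-45710203 (GRCm38, plus strand), encodes the D-box activator whose transcript is among the most strongly cycling in many tissues. It was at 0.576, 1.72, 1.35 and 1.11 CPM in Smad4-knockout replicates 1 to 4. In DKO replicates 1 to 5 it was at 7.93, 16.6, 9.70, 6.60 and 12.5 CPM. The lowest DKO library was thus well above the highest control library, although the control values rest on only 9, 29, 22 and 14 counts. The 95% exact Poisson interval, which covers counting error only, was 1.15 to 2.47 CPM for the highest control library and 5.26 to 8.17 CPM for the lowest DKO library. The mean was 1.19 ± 0.479 CPM (n = 4) in Smad4-knockout and 10.6 ± 3.96 CPM (n = 5) in DKO IECs, a log2 fold change of 3.15 (standard error 0.36).

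*Tef*, on chr15:81802421-81826863 (GRCm38, plus strand), encodes the second D-box activator of the list and was the most abundant member of the PAR bZIP family in these cells. Its levels in Smad4-knockout replicates 1 to 4 were 8.01, 16.2, 12.0 and 7.69 CPM. Those in DKO replicates 1 to 5 were 77.2, 110.4, 60.4, 51.9 and 53.3 CPM, so that the least of them was over 3 times the highest control value. Counts ran from 97 to 273 in the control and from 661 to 1554 in the DKO libraries, so counting error is small beside this gap. The mean went from 11.0 ± 3.99 CPM (n = 4) to 70.6 ± 24.4 CPM (n = 5), and the log2 fold change was 2.68 (standard error 0.29). With the 4 control libraries and the 2 DKO libraries of few Y-linked counts alone, the log2 fold change was 2.77 for *Dbp* and 2.35 for *Tef*, and with DKO replicates 1 and 2 left out that of *Tef* was 2.33. *Hlf*, the remaining PAR bZIP gene, had at most 8 counts in any library and was too low to be tested.

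*Ciart*, on chr3:95878503-95882251 (GRCm38, minus strand), encodes a repressor that acts on CLOCK and BMAL1. It was at 0.897, 1.48, 0.674 and 0.634 CPM in Smad4-knockout replicates 1 to 4, from 8 to 25 counts. DKO replicates 1 and 2 were at 11.5 and 15.8 CPM, and replicates 3 to 5 at 3.28, 3.22 and 2.25 CPM. All DKO values lay above the controls, but they formed a high pair and a lower trio, with a 7.06-fold range. At the narrowest point the counting intervals overlapped, with 1.50 to 3.22 CPM for DKO replicate 5 and 0.960 to 2.19 CPM for Smad4-knockout replicate 2. The mean was 0.922 ± 0.391 CPM (n = 4) and 7.22 ± 6.10 CPM (n = 5), and the fitted log2 fold change was 2.95 (standard error 0.64). It was 1.80 when the DKO libraries were limited to replicates 3 and 4, those of few Y-linked counts, and 1.64 with DKO replicates 1 and 2 left out.

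*Nfil3*, on chr13:52967209-52981073 (GRCm38, minus strand), encodes the repressor that competes with DBP and TEF at the D-box. It was at 12.5, 11.9, 10.6 and 9.51 CPM in Smad4-knockout replicates 1 to 4. In DKO replicates 1 to 5 it was at 8.89, 11.1, 6.77, 8.09 and 4.72 CPM. DKO replicates 1, 3, 4 and 5 were below every control value and replicate 2 was not, so that the groups overlapped, with means of 11.1 ± 1.33 CPM (n = 4) and 7.91 ± 2.37 CPM (n = 5) and a log2 fold change of -0.49 (standard error 0.22), which was -0.76 with DKO replicates 1 and 2 left out. It was the one member with a negative fold change.

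Activator and repressor of the D-box can be set side by side within a library, where depth cancels. The ratio of *Dbp* to *Nfil3* counts was 0.0462, 0.145, 0.127 and 0.117 in Smad4-knockout replicates 1 to 4. It was 0.892, 1.49, 1.43, 0.816 and 2.64 in DKO replicates 1 to 5. These are ratios of counts, with gene length left in. No control ratio reached a DKO ratio, and the geometric mean was 13.3-fold higher in DKO. For *Tef* to *Nfil3* the ratio ran from 0.641 to 1.37 in control and from 6.42 to 11.3 in DKO libraries. The ratio of *Dbp* to *Tef* changed far less, with means of 0.109 ± 0.0297 (n = 4) and 0.155 ± 0.0494 (n = 5) and overlapping values. Against *Arntl*, whose product activates it, *Dbp* gave 0.00684 to 0.0228 in control and 0.156 to 0.532 in DKO libraries. These ratios come from the contrast that chose the genes and are a description.

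**Figure D2:**
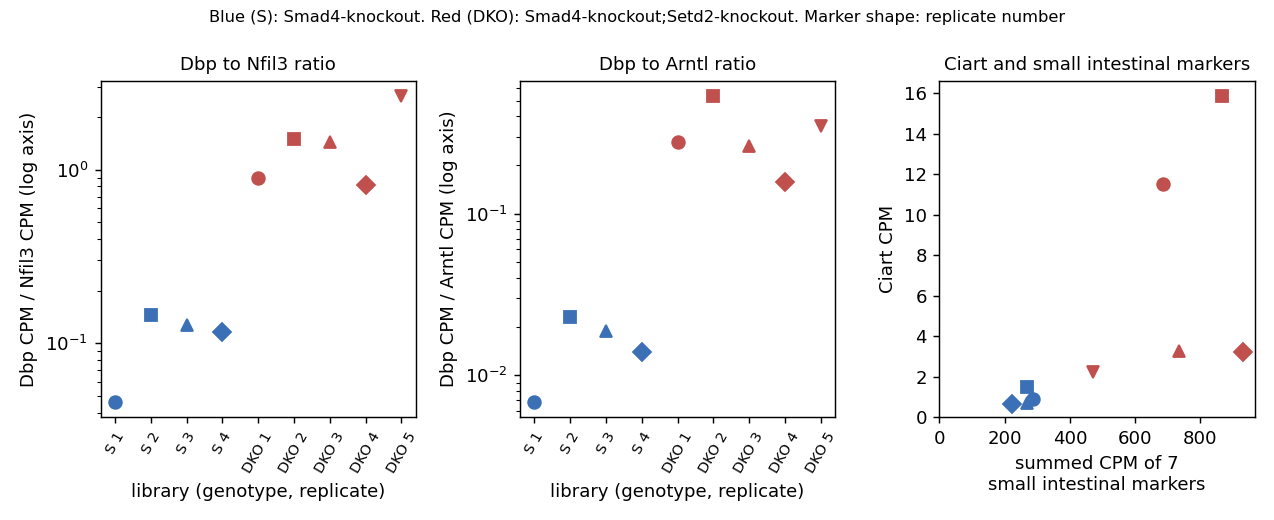
Ratio of *Dbp* to *Nfil3* and of *Dbp* to *Arntl* in each library (log axes), and *Ciart* CPM against the summed CPM of 7 small intestinal markers (linear axes), blue for Smad4-knockout and red for DKO, marker shape for the replicate number. The highest control ratio of *Dbp* to *Nfil3* is 0.145 and the lowest DKO ratio 0.816, and all DKO marker sums, from 471 to 931 CPM, lie to the right of the control sums.

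*Bhlhe40*, on chr6:108660629-108666925 (GRCm38, plus strand), encodes an E-box repressor that also answers to hypoxia and other stimuli. Its levels were 133, 147, 151 and 129.5 CPM in Smad4-knockout replicates 1 to 4. DKO replicates 1 to 5 were at 198, 191, 146, 137 and 162 CPM. DKO replicates 1, 2 and 5 lay above the controls and replicates 3 and 4 among them. The means were 140.3 ± 10.7 CPM (n = 4) and 167 ± 27.0 CPM (n = 5), with a log2 fold change of 0.25 (standard error 0.12). With DKO replicates 3 and 4 alone it was 0.02, and with DKO replicates 3 to 5 0.086. Its paralog *Bhlhe41* had at most 5 counts in any library and was not tested.

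*Rora*, on chr9:68653786-69388246 (GRCm38, plus strand), encodes the nuclear receptor that activates *Arntl* through the RORE. It was at 1.54, 1.72, 0.981 and 3.49 CPM in Smad4-knockout replicates 1 to 4, from 16 to 44 counts. In DKO replicates 1 to 5 it was at 3.01, 2.84, 3.91, 1.57 and 1.32 CPM. The groups overlapped over most of their range, with means of 1.93 ± 1.08 CPM (n = 4) and 2.53 ± 1.07 CPM (n = 5) and a log2 fold change of 0.41 (standard error 0.42). The log2 fold change was 0.84 without Smad4-knockout replicate 4, its highest control library, 0.19 without Smad4-knockout replicate 3, 0.21 without DKO replicate 3 and 0.27 without DKO replicates 1 and 2.

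*Wee1*, on chr7:110122046-110143286 (GRCm38, plus strand), encodes the kinase that holds CDK1 inactive before mitosis. It was at 16.1, 20.6, 13.7 and 19.0 CPM in Smad4-knockout replicates 1 to 4. In DKO replicates 1 to 5 it was at 21.9, 21.1, 30.6, 26.5 and 14.1 CPM. DKO replicates 1 to 4 exceeded every control library and replicate 5 fell within the control range, so the genotypes overlapped, with means of 17.4 ± 3.10 CPM (n = 4) and 22.8 ± 6.23 CPM (n = 5) and a log2 fold change of 0.40 (standard error 0.21). With DKO replicates 3 and 4 alone, those of few Y-linked counts, it was 0.73.

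*Usp2*, on chr9:44067021-44095627 (GRCm38, plus strand), encodes a deubiquitinase whose transcript follows the clock in many organs. Its control levels were 13.6, 11.8, 8.95 and 9.51 CPM. Its DKO levels were 8.64, 18.3, 14.0, 11.1 and 13.3 CPM. The lowest and the highest of the 9 libraries were both DKO libraries, and the means of 11.0 ± 2.16 CPM (n = 4) and 13.1 ± 3.58 CPM (n = 5) gave a log2 fold change of 0.25 (standard error 0.21), which was 0.10 without DKO replicate 2.

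Per kilobase of exon (GENCODE M21 annotation), which allows levels of different genes to be compared, *Bhlhe40* led in both genotypes, at 29.8 ± 2.27 (n = 4) and 35.5 ± 5.74 (n = 5) CPM per kilobase. In Smad4-knockout IECs *Nfil3* (5.49 ± 0.655) and *Wee1* (5.08 ± 0.906) came next and overlapped, followed by *Usp2* (2.28 ± 0.449) and *Tef* (1.39 ± 0.508), which overlapped too. *Ciart* (0.408 ± 0.173) and *Dbp* (0.397 ± 0.160) did not differ beyond their spread, and *Rora* (0.148 ± 0.0829) was lowest. In DKO IECs *Tef* (8.98 ± 3.10) stood second, ahead of *Wee1* (6.68 ± 1.82) and *Nfil3* (3.91 ± 1.17), with overlapping ranges between neighbours. *Dbp* (3.56 ± 1.32), *Ciart* (3.19 ± 2.70) and *Usp2* (2.71 ± 0.743) overlapped one another, and *Rora* (0.194 ± 0.0822) was again lowest.

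Except for *Nfil3*, each of the 8 genes shares exonic bases with a gene on the opposite strand, and whether the counting used strand is not given in the sources used here. Without strand, reads of such partners cannot be told apart. The partner of *Dbp*, the protein-coding sphingosine kinase gene *Sphk2*, was at 47.4 to 66.1 CPM over the 9 libraries with a log2 fold change of -0.01 (edgeR adjusted p = 0.946). The antisense partner of *Ciart*, *C920021L13Rik*, was at 0.419 to 1.41 CPM with a log2 fold change of 0.02 (edgeR adjusted p = 0.978), and that of *Tef*, *Gm17597*, had at most 0.0774 CPM. These partners were named because they overlap the 3 genes with the largest differences.

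The core loop that drives these outputs was read from a list of 13 genes, all of which were tested, and 4 of them rose and 3 fell in DKO IECs at an edgeR adjusted p under 0.05 (Benjamini-Hochberg adjustment over all genes), beside 6.76% and 6.54% of all genes tested. This list, like those further down the pathway, was chosen with earlier results of these data known. Nothing is read from these shares, and the adjusted p-values of list genes are given as a description. The activators *Arntl* and *Npas2* fell. *Arntl* was at 78.0 ± 5.34 CPM (n = 4) and 35.0 ± 5.27 CPM (n = 5), and the fitted log2 fold change was -1.16 (standard error 0.11, edgeR adjusted p = 0.000226). *Npas2*, a paralog of *Clock*, went from 37.4 ± 6.09 to 13.9 ± 2.39 CPM (log2 fold change -1.43, standard error 0.15, edgeR adjusted p = 0.000469). *Clock* itself was at 166 ± 11.5 and 160.0 ± 6.17 CPM and did not pass (log2 fold change -0.06, edgeR adjusted p = 0.624).

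The repressors of the loop that passed were all higher. *Nr1d2* rose from 29.5 ± 4.45 to 92.0 ± 25.9 CPM (log2 fold change 1.64, edgeR adjusted p = 0.000873), and *Nr1d1* from 11.5 ± 5.46 to 38.8 ± 14.4 CPM (log2 fold change 1.76, edgeR adjusted p = 0.0102). *Per3* rose from 3.06 ± 0.726 to 8.08 ± 3.29 CPM (log2 fold change 1.40, edgeR adjusted p = 0.013). *Per2* rose from 30.4 ± 12.5 to 60.2 ± 11.4 CPM (log2 fold change 0.98, edgeR adjusted p = 0.023), with Smad4-knockout replicate 2 at 48.9 CPM inside the DKO range. *Per1* was at 18.7 ± 4.56 and 40.7 ± 21.5 CPM and did not pass (log2 fold change 1.12, edgeR adjusted p = 0.058), with DKO replicates 1 and 2 at 64.0 and 64.1 CPM and the other 3 between 21.4 and 28.9 CPM. *Cry2* (log2 fold change 0.67, edgeR adjusted p = 0.138) and *Cry1* (log2 fold change -0.28, edgeR adjusted p = 0.440) did not pass either.

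Of the genes that act on clock protein stability, *Btrc*, which encodes a ubiquitin ligase subunit that targets PER proteins, fell from 20.8 ± 1.18 to 13.0 ± 3.41 CPM (log2 fold change -0.67, edgeR adjusted p = 0.0291). *Csnk1d* and *Csnk1e* did not pass, with log2 fold changes of 0.05 and 0.09. The call of *Btrc* was lost when any 1 Smad4-knockout library or DKO replicate 1, 2 or 4 was left out (log2 fold change -0.69 to -0.59), that of *Per2* without Smad4-knockout replicate 1, 3 or 4 (0.86, 0.92 and 0.89), and that of *Per3* without Smad4-knockout replicate 3 (1.28). *Per1* passed without DKO replicate 3 (1.29) or 5 (1.23), and was at 0.90 without DKO replicate 1 or 2. Without Smad4-knockout replicate 3, 4 core clock genes passed in place of 7. With a term for Y-linked counts *Per3*, *Nr1d1* and *Btrc* did not pass (log2 fold changes of 1.10, 1.22 and -0.57), while all 3 passed at the same fold among libraries with few Y-linked counts (edgeR adjusted p = 0.0162, 0.0374 and 0.0474). With that term the log2 fold changes of *Per1* and *Cry2* went to 0.31 and 0.15. With DKO replicates 1 and 2 left out, 6 core clock genes passed, *Btrc* did not (-0.48), and *Per1* and *Cry2* were at 0.43 and 0.14.

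**Figure D3:**
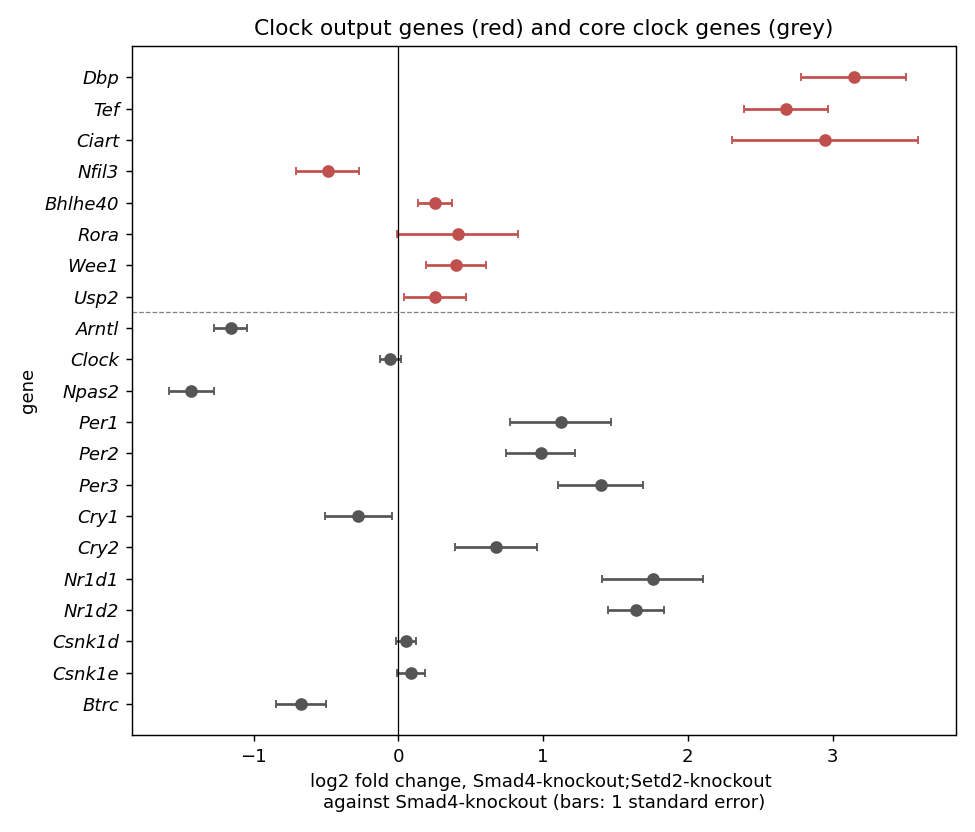
Fitted log2 fold change of DKO against Smad4-knockout IECs (horizontal axis, linear), with bars of 1 standard error, for the 8 clock output genes (red) and 13 core clock genes (grey). *Dbp*, *Ciart* and *Tef* lie farthest to the right at 3.15, 2.95 and 2.68, and *Npas2* and *Arntl* farthest to the left at -1.43 and -1.16.

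Of 25 genes tested in 4 lists further down the pathway, 4 passed, a share of 16% that is near the 13.3% of all genes tested. Of 5 relatives of the 8 genes, 1 could be tested and it fell, *Pkmyt1*, a kinase that like *Wee1* restrains CDK1 (27.0 ± 5.75 to 17.0 ± 3.01 CPM, log2 fold change -0.66, edgeR adjusted p = 0.0246). Of 6 targets credited to DBP, TEF and HLF in liver and brain, 4 could be tested, and 1 rose and 1 fell. *Alas1*, the first enzyme of haem synthesis, rose from 155 ± 9.16 to 199 ± 21.9 CPM (log2 fold change 0.36, edgeR adjusted p = 0.0269). *Pdxk*, the pyridoxal kinase, fell from 34.2 ± 1.08 to 24.9 ± 3.99 CPM (log2 fold change -0.46, edgeR adjusted p = 0.0285).

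Of 11 further clock-controlled genes tested, 1 rose, *Coq10b*, which serves coenzyme Q (30.8 ± 1.74 to 39.0 ± 3.49 CPM, log2 fold change 0.34, edgeR adjusted p = 0.0338), and none fell. This count was 0 without any 1 of the Smad4-knockout libraries or DKO replicate 3 or 4, and 4 without DKO replicate 5, while the log2 fold change of *Coq10b* stayed between 0.30 and 0.37 in the fits that lost it. The count was 3 with DKO replicates 1 and 2 left out, of which 2 rose and 1 fell. *Alas1* lost its call without Smad4-knockout replicate 1, 2 or 4 or DKO replicate 4 (log2 fold change 0.34 to 0.36), *Pdxk* without any 1 Smad4-knockout library or DKO replicate 1 or 4 (-0.48 to -0.39), with the term for Y-linked counts (-0.43) and among libraries with few of them (-0.42), and *Pkmyt1* without Smad4-knockout replicate 1 or 3 or DKO replicate 4 (-0.67 to -0.51). Of 9 genes of the G2/M transition, where *Wee1* acts, 0 passed by edgeR, by DESeq2 or by limma-voom, and 0 had an unadjusted p under 0.05 in edgeR.

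The spread within a genotype was read from log2 CPM (prior count 2) after the genotype mean was taken out, which does not use the difference between the groups. Over all genes tested, the median of the pooled standard deviation was 0.23 on this log2 scale. *Ciart* had 0.98, more than 97.4% of genes tested and than 94.3% of 1169 genes of like abundance. *Tef* had 0.48, above 96.2% of 2385 genes of like abundance, and *Dbp* 0.55, above 74.8% of 1183. *Rora* had 0.66 (above 77.6% of genes of like abundance), *Wee1* 0.36 (87.9%), *Nfil3* 0.36 (73.8%), *Usp2* 0.35 (77.9%) and *Bhlhe40* 0.19 (72.7%). Each of the 8 genes thus had a higher pooled standard deviation than most genes of like abundance. Abundance here was the mean over all 9 libraries, so it took in the levels of both genotypes. *Dbp* and *Ciart* had only 9 to 29 and 8 to 25 counts in control libraries. Counting error there is part of their spread and was not taken out.

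Across the 9 libraries, deviations from the genotype means described which of the 8 genes varied together. The points of each pair share library and depth, so the coefficients are given as a description. Over 28 pairs the median Pearson r was 0.23, 7 pairs were above 0.5 and 0 under -0.5. The highest was *Ciart* with *Nfil3* (r = 0.85, Spearman rho = 0.87, and r = 0.73 without DKO replicates 1 and 2, the libraries farthest from the median of *Ciart*). *Tef* with *Ciart* gave r = 0.80 (rho = 0.67, and 0.58 without Smad4-knockout and DKO replicate 2). *Ciart* with *Bhlhe40* gave r = 0.77 (rho = 0.75), which was 0.46 without DKO replicates 1 and 2. *Tef* with *Bhlhe40* gave r = 0.76 (rho = 0.75, and 0.80 without Smad4-knockout and DKO replicate 2), and *Dbp* with *Tef* r = 0.70 (rho = 0.67, and 0.51 without Smad4-knockout replicate 1 and DKO replicate 2).

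*Dbp* and its competitor *Nfil3* did not vary together within genotypes (r = -0.03, rho = -0.03), while *Tef* and *Nfil3* gave r = 0.60 (rho = 0.53, and 0.33 without Smad4-knockout and DKO replicate 2). Leaving out DKO replicate 2 moved the first of these to -0.56, and that library had the highest level of *Dbp*, *Tef*, *Ciart* and *Usp2* and the highest DKO level of *Nfil3*. *Rora* and *Wee1* gave r = 0.63 (rho = 0.63, and 0.52 without Smad4-knockout replicate 4 and DKO replicate 5). Over all 9 libraries *Usp2* had no r above 0.31 with any other member, but its coefficients rested on single libraries. With *Dbp* its r was -0.05 without DKO replicate 2 and 0.82 without Smad4-knockout replicate 1, and with *Ciart* -0.42 without DKO replicate 2 and 0.72 without DKO replicate 1. With *Tef* it was 0.23, and -0.62 without Smad4-knockout and DKO replicate 2.

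**Figure D4:**
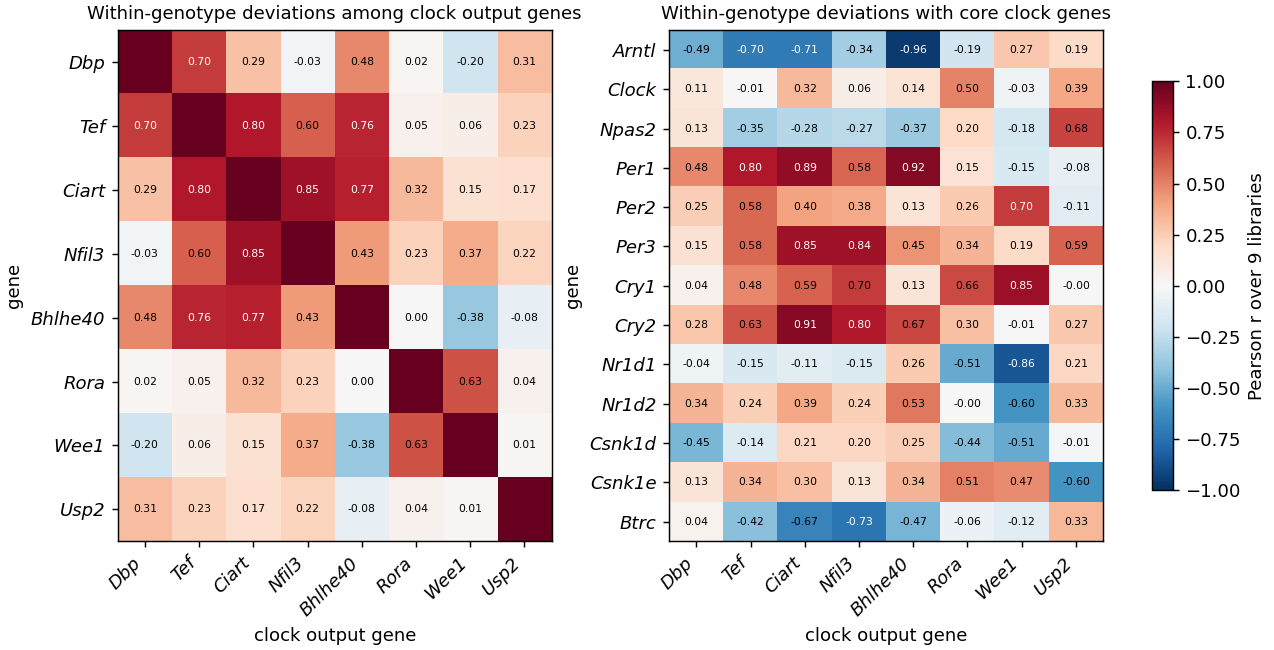
Pearson r over 9 libraries of log2 CPM minus the genotype mean, between the 8 clock output genes (left) and between them and 13 core clock genes (right), red for positive and blue for negative r. *Tef*, *Ciart*, *Nfil3* and *Bhlhe40* form the red block on the left, and *Bhlhe40* with *Arntl* is the most negative cell on the right at -0.96.

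The same deviations were set against those of the core clock genes in 104 pairs. *Bhlhe40* ran opposite to *Arntl* (r = -0.96, rho = -0.92, and -0.93 without DKO replicates 1 and 4) and along with *Per1* (r = 0.92, rho = 0.90, and 0.91 without them). *Ciart* ran with *Cry2* (r = 0.91, rho = 0.87, and 0.78 without DKO replicates 1 and 2) and with *Per1* (r = 0.89, rho = 0.80, and 0.69). *Tef* with *Per1* gave r = 0.80 (rho = 0.68, and 0.67 without Smad4-knockout and DKO replicate 2), whereas *Dbp* with *Per1* gave 0.48 (rho = 0.60, and 0.20 without Smad4-knockout replicate 1 and DKO replicate 2). *Wee1* ran with *Cry1* (r = 0.85, rho = 0.82, and 0.55 without DKO replicates 3 and 5) and opposite to *Nr1d1* (r = -0.86, rho = -0.93, and -0.91). Few libraries and many pairs stand behind these values, and the highest were picked out after all had been computed.

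Among 13696 genes tested with a mean of at least 1 CPM, the 5 whose deviations were most like those of *Dbp* were *2610528A11Rik* (r = 0.96), *Trmt61b* (0.93), *Tchp* (0.91), *Gm30311* (0.91) and *Dzip1l* (0.90). The 5 least like it were *Mink1* (-0.95), *Arsb* (-0.93), *Eef1a1-ps1* (-0.93), *Hmmr* (-0.92) and *Eif2ak3* (-0.91). *Tef* was place 153 in the order of likeness to *Dbp*. The closest to *Tef* were *Gm2061* (0.98), *Aqp1* (0.96) and *Aimp1* (0.96), to *Ciart* *Sbf2* (0.98), *Armc8* (0.98) and *Alpi* (0.97), to *Nfil3* *Gm34289* (0.98), *Tbc1d9* (0.97) and *Trim13* (0.96), and to *Bhlhe40* *Qtrt1* (0.98), *Mtfr1l* (0.98) and *Pigk* (0.98). Those closest to *Rora* were *Ap3s2* (0.94), *Gm16477* (0.91) and *Elac1* (0.90), to *Wee1* *Efr3b* (0.95), *Rab8b* (0.95) and *Txk* (0.94), and to *Usp2* *Ttll5* (0.96), *Rere* (0.95) and *Slc16a7* (0.94). All are coefficients over 9 libraries, and the highest of so many are high by selection.

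In whole IEC preparations, fewer cells of a type and less RNA per cell cannot be told apart. Epithelial markers were abundant throughout, the summed level of 8 of them being 12934 to 14940 CPM in Smad4-knockout and 12306 to 14589 CPM in DKO libraries. The sums overlapped as well for 4 colonocyte markers (3298 to 4829 and 1792 to 5710 CPM), 8 leukocyte markers (57.6 to 155 and 51.4 to 107 CPM) and 6 fibroblast markers (10.8 to 25.9 and 18.7 to 57.7 CPM). The fibroblast sum was above every control library in DKO replicates 1 to 3, and 0 of the 4 fibroblast markers tested passed by edgeR. Smooth muscle and endothelial markers were low, with sums of at most 3.07 and 3.45 CPM in any library. Markers of small intestinal enterocytes did move with the genotype. Their sum over 7 genes was 224 to 288 CPM in Smad4-knockout and 471 to 931 CPM in DKO libraries, 4 of the 6 tested, *Fabp6*, *Slc10a2*, *Sis* and *Enpep*, rose by edgeR (6.76% of all genes tested did), and lactase (*Lct*) had at most 0.448 CPM in any library. They therefore stood higher in the same libraries as *Dbp*, *Tef* and *Ciart*, and their part in those differences was not tested.

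Within genotypes, the deviations of 5 marker sums were set against those of the 8 genes in 40 pairs, of which 11 had an r above 0.5 or under -0.5. The small intestinal sum ran with *Nfil3* (r = 0.82, rho = 0.60, and 0.74 without DKO replicates 4 and 5) and *Wee1* (0.57, rho = 0.12, and -0.27), and less with *Ciart* (0.43, rho = 0.28, and 0.47), *Tef* (0.31, rho = 0.20, and 0.53) and *Dbp* (-0.23, rho = -0.17, and 0.25). The epithelial sum ran opposite to *Ciart* (r = -0.73, rho = -0.60, and -0.88 without Smad4-knockout replicate 4 and DKO replicate 1), *Rora* (-0.72, rho = -0.85, and -0.59) and *Nfil3* (-0.51, rho = -0.45, and -0.72). The colonocyte sum ran opposite to *Ciart* (r = -0.62, rho = -0.63, and -0.45 without DKO replicates 1 and 3), *Nfil3* (-0.59, rho = -0.70, and -0.73) and *Bhlhe40* (-0.51, rho = -0.42, and 0.14). *Car1* was the largest part of that sum in every library and varied most, from 954 to 4174 CPM. The colonocyte markers did not all move alike. *Aqp8* and *Car4* were highest in DKO replicate 2 (653 and 609 CPM), as *Ciart* was, while *Car1* and *Slc26a3* were not. The fibroblast sum ran with *Tef* (r = 0.52, rho = 0.62, and 0.90 without replicate 3 of both genotypes). The leukocyte sum ran with *Rora* (r = 0.72, rho = 0.73, and 0.34 without Smad4-knockout replicate 4 and DKO replicate 5) and *Wee1* (0.63, rho = 0.67, and 0.60). Smad4-knockout replicate 4, the control library with the highest *Rora*, also had the highest leukocyte sum of all 9. That rank rested on 1 marker, *Lyz2*, at 63.6 CPM there and 4.55 to 15.3 CPM in the other libraries.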

How the data were processed

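RNA-seq libraries of colonic IECs, 4 Smad4-knockout and 5 Smad4-knockout;Setd2-knockout, were grouped by the genotype in their sample labels. The authors deposited raw whole-number counts for each gene symbol, 1 column a library. The submitters' processing notes name HISAT2 2.0 and build mm10. The counting program, its annotation and its use of strand are not given in the sources used here. Of the 46095 symbols, 27 had been turned into dates and stayed in the totals without a name.

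In R 4.3.3, the filterByExpr function of edgeR 4.0.16, given the genotypes, left 14593 genes, which were normalized with TMM, and the deposited counts were tested with edgeR's quasi-likelihood test and Benjamini-Hochberg adjustment over all genes, without covariates. Standard errors were obtained by dividing the size of the log2 fold change by the square root of its F statistic. Alternatives were DESeq2 1.42.0, limma-voom (limma 3.58.1), other size factors and filters, each library left out, a replicate block, a term for Y-linked counts, and DKO replicates 1 and 2 both left out. Same-numbered libraries deviated with correlations of -0.10 to 0.09, and the labels tie no number to a litter or batch, so they were not paired. Libraries of a genotype differed beyond sampling noise, and all 9 were counted as replicates. The labels number the libraries but do not state that each came from a separate mouse, so p-values measure only the spread between these libraries.

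Gene positions and exon lengths are from GENCODE M21 on GRCm38, which is mm10. The 8 genes and the gene lists were chosen with earlier results of these data known, and 2 genes that had stood in those lists are not reported here. The genes named are the 8 members, list genes with an adjusted p under 0.05, all tested core clock genes, the 5 most and least like *Dbp*, the 3 most like each other member, and *Setd2* and *Smad4*. Other genes (*Hlf*, *Bhlhe41*, *Lct*, *Nampt*, *Alpi*, *Fkbp5*, *Xist*, *Car1*, *Car4*, *Aqp8*, *Slc26a3*, *Lyz2* and the genes overlapping on the opposite strand) were named after their values were seen.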

Additional observations from a re-analysis of the deposited data

How the results depend on the processing

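All 8 clock output genes kept the sign of their fold change under every alternative run. The log2 fold change stayed between 2.76 and 3.38 for *Dbp*, 2.33 and 2.93 for *Tef*, -0.76 and -0.34 for *Nfil3*, 0.19 and 0.84 for *Rora*, 0.28 and 0.73 for *Wee1*, and 0.10 and 0.38 for *Usp2*. *Ciart* was at 1.79 with the term for Y-linked counts and 1.80 among libraries with at most 1000 such counts, and *Bhlhe40* at 0.011 and 0.016. With DKO replicates 1 and 2 both left out, a choice made after seeing the data, they were at 1.64 and 0.086. With each library left out in turn, *Ciart* ran from 2.44 to 3.27 and *Bhlhe40* from 0.18 to 0.32. *Dbp* and *Ciart* had no value where 10 counts were required in every library, since Smad4-knockout libraries held fewer.

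Over all genes, 1941 passed the edgeR test, 847 (without Smad4-knockout replicate 3) to 2696 (without DKO replicate 5) with a library left out, 1285 with the Y-linked term and 2930 among libraries with few Y-linked counts. Without Smad4-knockout replicates 1, 2 and 4 there were 1018, 1204 and 1183, and without DKO replicate 4 1273. Of the core clock, 7 genes passed, 4 to 8 with a library left out 4 with the Y-linked term, 7 among libraries with few Y-linked counts and 6 with DKO replicates 1 and 2 left out (2154 over all genes). *Arntl*, *Npas2* and *Nr1d2* passed in all 20 alternatives. With the Y-linked term *Per3* (1.10), *Nr1d1* (1.22) and *Btrc* (-0.57) no longer passed, though they did among libraries with few Y-linked counts, and *Per1* passed with DESeq2 and without a filter but was at 0.31 with the Y-linked term and among libraries with few Y-linked counts (edgeR adjusted p = 0.572 and 0.295). A replicate block over replicates 1 to 4 gave 1581 genes and 7 core clock genes, where the same 8 libraries without it, a fit chosen after seeing the data, gave 2696 and 8. *Pdxk*, *Coq10b* and *Pkmyt1* no longer passed with the block (-0.46, 0.33 and -0.65). Without a filter on low counts *Alas1* (0.34) and *Coq10b* (0.32) did not pass. With the replicate block *Dbp* was at 3.11, *Tef* at 2.79 and *Ciart* at 3.02. The cause of these shifts was not tested. Depth limits *Dbp* and *Ciart*, with at most 29 counts in a Smad4-knockout library, and *Rora*, with at most 56 in any library.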

Other observations

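Genes outside the 8 that shared the high levels of DKO replicates 1 and 2 were seen after the data were examined. *Nampt*, the enzyme that makes NAD precursors and a clock output in other tissues, was at 259 and 318 CPM in those libraries, 125 to 132 CPM in DKO replicates 3 to 5 and 133 to 137 CPM in the 4 Smad4-knockout libraries. *Cry2* was at 29.9 and 45.9 CPM there, 16.2 to 19.8 CPM in the other 3 DKO libraries and 14.0 to 17.0 CPM in Smad4-knockout libraries. *Alpi*, the intestinal alkaline phosphatase, was at 81.1 and 97.5 CPM, then 19.4 to 32.9 CPM, and 17.7 to 25.4 CPM in Smad4-knockout libraries. None of the 3 passed the edgeR test between the genotypes (adjusted p = 0.226, 0.138 and 0.0724). *Fkbp5*, a glucocorticoid-responsive gene, was at 23.0 CPM in DKO replicate 5 and 2.20 to 2.88 CPM in the other DKO libraries, against 0.961 to 1.96 CPM in Smad4-knockout libraries (edgeR adjusted p = 0.0737).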
